A study of Mus musculus with 12 samples.

Results

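Mitochondrial DNA of the mouse is read on its heavy strand into long precursors that are cut into messenger RNAs and into the RNAs of the mitochondrial ribosome. The messengers encode core subunits of the respiratory chain and of ATP synthase. Most of them receive a poly(A) tail inside the mitochondrion that in some completes the stop codon. Every protein needed to copy, transcribe, cut, tail and translate these RNAs is encoded in the nucleus.

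The 10 transcripts described here were taken by name from the rows present in both tables of the series, where 19429 genes are listed in at least 1 table and 16618 in both. They comprised 8 messengers (mt-Nd1, mt-Nd2, mt-Nd4, mt-Nd5, mt-Cytb, mt-Co1, mt-Co3 and mt-Atp6) and 2 ribosomal RNAs (mt-Rnr1 and mt-Rnr2), and all 10 passed the filter on low values in both comparisons. The names were put forward with the TKO and WT signal of these transcripts known, so they count as selected on that contrast, and their TKO against WT values are given as a description with no test. The 5 other messengers of mitochondrial DNA (mt-Nd3, mt-Nd4l, mt-Nd6, mt-Co2 and mt-Atp8) were not among the 10 and are described separately.

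RNA was sequenced from primary cultures of the stromal vascular fraction, the progenitor-containing cells left when fat cells are removed from adipose tissue, here white adipose tissue of C57BL/6 mice aged 6 weeks. There were 4 groups with 3 libraries each. TKO cells were homozygous for deletions of miR-26b as well as miR-26a-1 and miR-26a-2, and WT cells were wild type, both being cultured to confluency. Dox cells carried M2rtTA together with eGFP.miR-26a and were grown to confluency with 1 mg/ml doxycycline over 4 days. That concentration is high for cultured cells and is the one in the labels. CTL cells had the same transgenes and no drug. Doxycycline is known as an inhibitor of mitochondrial translation, and in Dox against CTL the drug and the induced miR-26a cannot be told apart. The labels do not say whether replicates are separate animals or cultures, so p-values measure only the spread between these libraries.

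The libraries were made with a stranded kit that selects polyadenylated RNA. Messengers with a tail were therefore captured through it, and the ribosomal RNAs, which carry only short tails, were captured to an extent not known here. Depth ran from 71455171 to 83461531 recovered reads in TKO libraries and from 54978109 to 61307152 in WT libraries, so every TKO library was deeper. In Dox libraries it ran from 19301969 to 25785439 and in CTL libraries from 20182665 to 24122542. The part of depth in the results below was not tested. The unit throughout is signal, the read count divided by library size and scaled by the authors. Summed signal of 9 stromal progenitor markers was 15718 to 16665 in TKO, against 15436 to 16812 in WT, and 18282 to 22990 in Dox, against 18810 to 22672 in CTL. Summed signal of 8 macrophage and leukocyte markers was far lower, at 47.9 to 251 in TKO, against 35.2 to 55.7 in WT, and 27.0 to 123 in Dox, against 37.6 to 150 in CTL. Summed signal of endothelial, mature adipocyte, and mesothelial and epithelial markers overlapped between the groups of both comparisons. The part of these other cells in the results below was not tested. Of the mature adipocyte markers Lep had no row in TKO against WT, and Cidec, Lep and Retn had none in Dox against CTL. Fewer cells of a type and less RNA per cell cannot be told apart in such bulk samples.

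The 3′ ends of the 10 transcripts are shown because they are where the tail is joined and where the messengers differ in form. Each line gives the last 30 bases, 5′ to 3′, from the GENCODE vM21 transcripts (build GRCm38), with the bases of the stop codon in capitals.
mt-Nd1: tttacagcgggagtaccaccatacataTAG
mt-Nd2: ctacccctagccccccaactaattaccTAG
mt-Nd4: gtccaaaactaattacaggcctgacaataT
mt-Nd5: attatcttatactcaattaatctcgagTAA
mt-Cytb: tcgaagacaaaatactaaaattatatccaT
mt-Co1: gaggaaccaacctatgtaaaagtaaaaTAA
mt-Co3: tatacgtctccatttattgatgaggatctT
mt-Atp6: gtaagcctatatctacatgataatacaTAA
mt-Rnr1: aagcatactggaaagtgtgcttggaataat
mt-Rnr2: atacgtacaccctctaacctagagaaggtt

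All 10 genes lie on the + strand of the mitochondrial chromosome, and these ends are chrM:3678-3707 for mt-Nd1, chrM:4922-4951 for mt-Nd2, chrM:11515-11544 for mt-Nd4, chrM:13536-13565 for mt-Nd5, chrM:15259-15288 for mt-Cytb, chrM:6843-6872 for mt-Co1, chrM:9361-9390 for mt-Co3, chrM:8578-8607 for mt-Atp6, chrM:995-1024 for mt-Rnr1 and chrM:2646-2675 for mt-Rnr2. In mt-Nd4, mt-Cytb and mt-Co3 the gene stops after the T of the stop codon, and the tail supplies the remaining bases. mt-Nd1 and mt-Nd2 end in TAG, and mt-Nd5, mt-Co1 and mt-Atp6 end in TAA. The ribosomal RNAs have no stop codon.

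The miR-26 genes deleted in TKO cells give 5p and 3p microRNAs, and the Dox transgene carries miR-26a only. The 3p microRNAs have other seeds and were not searched for matches, and microRNA levels were not examined here. The 5p microRNAs, credited to RefSeq (GRCm38.p6), are shown with the seed, bases 2 to 8, in capitals.
miR-26a-5p: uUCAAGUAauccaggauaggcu
miR-26b-5p: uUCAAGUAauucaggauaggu

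Both share the seed. Its perfect match over bases 2 to 8, TACTTGA on the sense strand, was in 0 of the 8 messengers and in neither ribosomal RNA. For scale, 6.7% of 18923 protein-coding transcripts held TACTTGA in a stretch of 1091 bases at the 3′ end. The match to bases 1 to 7, ACTTGAA, was also in 0 of the 8, against 10.6% of those transcripts, and the shorter ACTTGA contained in both was in mt-Nd5 alone of the 8, against 27.1%. Outside the 8, mt-Nd6 held the longer TACTTGAA, which contains both. A match or its absence is a property of these letters only.

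**Figure D1:**
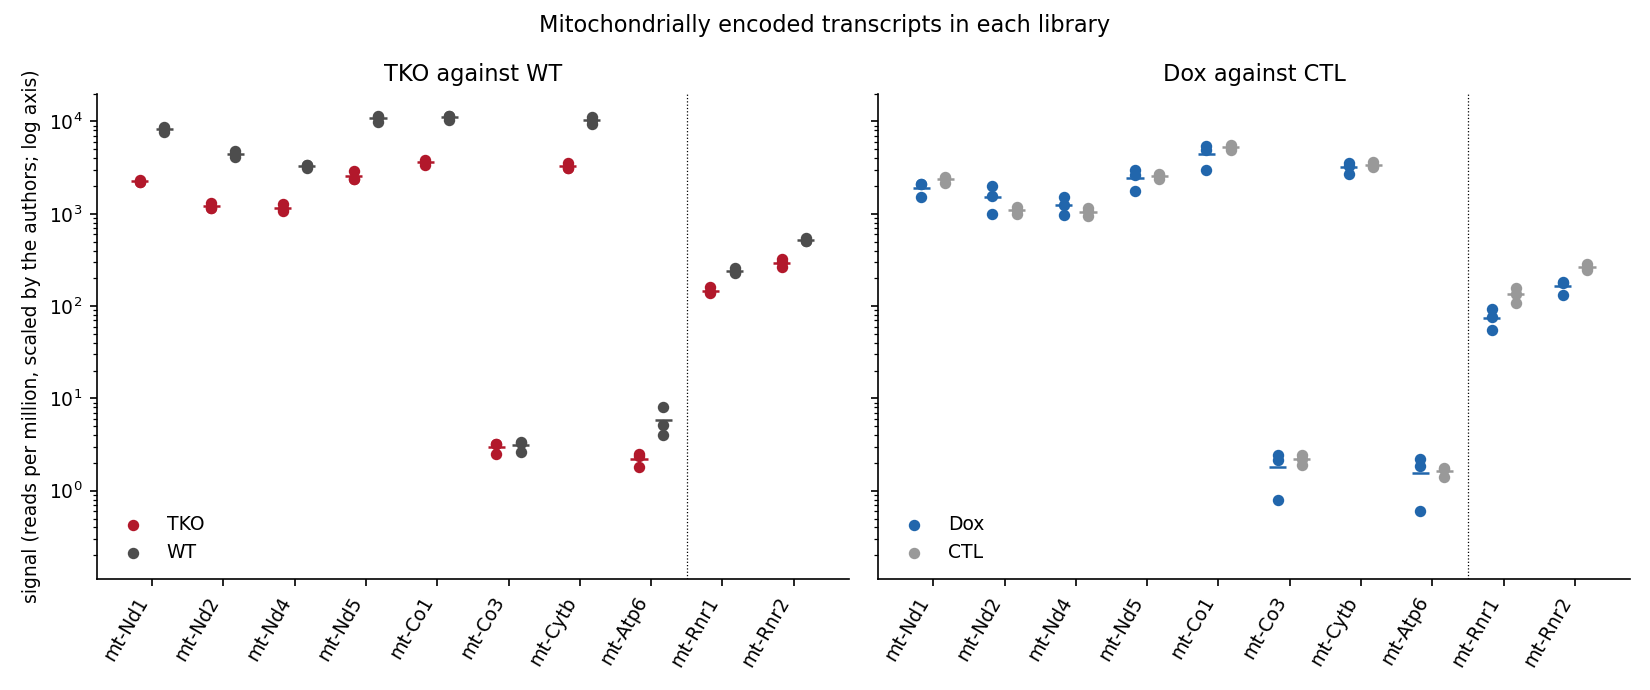
Signal (reads scaled to a common library size by the authors, log axis) of the 10 transcripts in each library, TKO (red) and WT (dark grey) at left, Dox (blue) and CTL (light grey) at right. Points are libraries, short lines are means of 3, and the dotted line divides messengers from ribosomal RNAs; all but mt-Co3 are lower in TKO without overlap, and in Dox the ribosomal RNAs and mt-Nd1 are.

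In TKO cells the messengers of complex I, the respiratory enzyme that takes electrons from NADH, were 2.84-fold to 4.26-fold lower than in WT cells. mt-Nd5, a proton-pumping subunit of the membrane arm, had 2891, 2385 and 2397 in TKO libraries, against 11252, 11587 and 9870 in WT libraries. The groups were far apart, the highest TKO library being below the lowest WT library, and the ratio of means was 4.26-fold lower in TKO (log2 fold change -2.09, SE 0.133, n = 3 each). mt-Nd2, another membrane-arm subunit, had 1307, 1156 and 1146 in TKO, against 4495, 4828 and 4101 in WT.
mt-Nd1, which lies where the membrane arm meets the quinone site, had 2331, 2198 and 2188 in TKO, against 8464, 8660 and 7623 in WT. Both were lower in every TKO library, with log2 fold changes of -1.89 (SE 0.106) for mt-Nd2 and -1.88 (SE 0.105) for mt-Nd1. mt-Nd4, also a proton-pumping subunit, had 1272, 1117 and 1064 in TKO, against 3342, 3355 and 3100 in WT. Its log2 fold change, -1.51 (SE 0.10), was the smallest in size of the complex I members.

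The messengers of complexes III and IV that were well covered were about 3-fold lower in TKO. mt-Cytb, the cytochrome b of complex III that carries electrons between its quinone sites, had 3582, 3094 and 3166 in TKO, against 10256, 11227 and 9346 in WT. mt-Co1, the catalytic subunit of complex IV that holds the oxygen-reducing centre, had 3871, 3408 and 3604 in TKO, against 11415, 11550 and 10276 in WT. The groups did not overlap for either, and the ratios of means were 3.13-fold lower for mt-Cytb (log2 fold change -1.65, SE 0.127) and 3.06-fold lower for mt-Co1 (-1.61, SE 0.118).

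mt-Co3, a structural core subunit of complex IV, and mt-Atp6, the subunit of ATP synthase that forms the proton path, had almost no signal in any group. mt-Co3 had 3.19, 3.18 and 2.48 in TKO, against 3.32, 2.62 and 3.40 in WT, and its groups overlapped. mt-Atp6 had 2.38, 2.47 and 1.81 in TKO, against 8.14, 4.05 and 5.21 in WT, lower without overlap but with a coefficient of variation of 36.3% in WT. These values rest on 224 to 252 reads per TKO library and 157 to 188 per WT library for mt-Co3, and on 163 to 196 and 243 to 461 for mt-Atp6. At such levels the pseudocount of 1 shrinks the fold change: for mt-Atp6 the fitted log2 fold change was -1.04 (SE 0.224) and the log2 ratio of means -1.39.

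The ribosomal RNAs were lower in TKO by less than the well-covered messengers. mt-Rnr1, the RNA of the small ribosomal subunit, had 140, 160 and 141 in TKO, against 236, 228 and 259 in WT. mt-Rnr2, the RNA of the large subunit, had 298, 322 and 267 in TKO, against 552, 513 and 510 in WT. Neither overlapped between the groups, with log2 fold changes of -0.71 (SE 0.083) for mt-Rnr1 and -0.83 (SE 0.086) for mt-Rnr2. The pair kept close to a fixed proportion, with an mt-Rnr2 to mt-Rnr1 ratio of 2.01 ± 0.118 in TKO and 2.18 ± 0.195 in WT (SD, n = 3 each).

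Across the 10, 9 were lower in TKO without overlap, which 29.4% of the 12649 genes tested also were in that direction, and 45.8% of all genes passed the limma threshold of adjusted p 0.05 in either direction. The median log2 fold change was -1.56 over the 10, -1.63 over the messengers and -0.77 over the ribosomal RNAs, beside -0.001 over all genes tested. A log2 fold change of -1 or below was found in 1.26% of genes. Counted from the lowest fold change of the 12649, mt-Nd5 stood at rank 3, mt-Nd2 at 8, mt-Nd1 at 9, mt-Cytb at 16, mt-Co1 at 17 and mt-Nd4 at 21. Scaling each library to its total alone moved the median of all genes to 0.11 and left the 9 below 0, while mt-Co3 moved to 0.038.

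**Figure D2:**
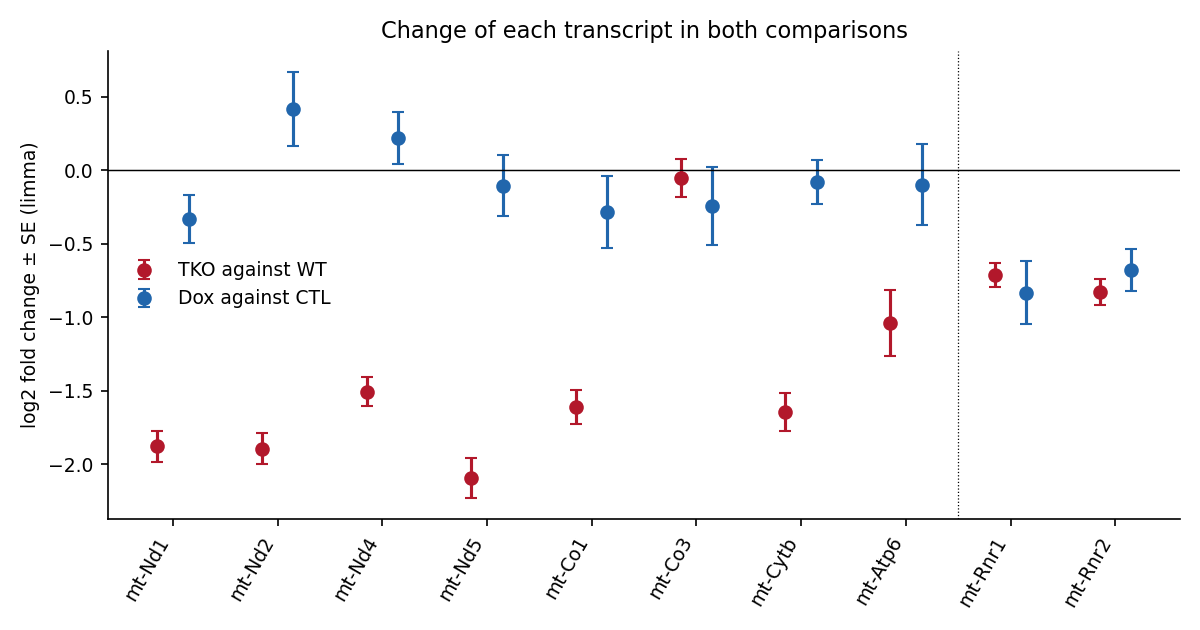
Log2 fold change from limma (vertical axis) for each of the 10 transcripts in TKO against WT (red) and Dox against CTL (blue), with bars of 1 SE and a dotted line before the ribosomal RNAs. In TKO the well-covered messengers lie between -1.51 and -2.09 and the ribosomal RNAs at -0.71 and -0.83, whereas in Dox the ribosomal RNAs, at -0.83 and -0.68, are lower than every messenger.

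In Dox cells the order was the other way: the ribosomal RNAs had the lowest fold changes of the 10, and the messengers lay on both sides of 0. mt-Rnr1 had 76.7, 55.6 and 93.3 in Dox libraries, against 137, 107 and 157 in CTL libraries. mt-Rnr2 had 179, 133 and 184 in Dox, against 260, 243 and 284 in CTL. Neither overlapped between the groups, every Dox library being below every CTL library, so the Dox library was also the lower in each of the 3 same-numbered pairs. Summed signal of 6 Schwann and muscle markers was 179 to 191 in Dox, against 109 to 168 in CTL, higher without overlap, and its part in these values was not tested.

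mt-Rnr1 had a log2 fold change of -0.83 (SE 0.215) and mt-Rnr2 of -0.68 (SE 0.141). The limma adjusted p was 0.608 for mt-Rnr1 and 0.432 for mt-Rnr2, so neither passed the test that ignores the replicate number. Same-numbered Dox and CTL libraries deviated from their group means together, and with the replicate number as a block both passed, at limma adjusted p = 0.00364 for mt-Rnr1 (SE 0.074) and 0.0105 for mt-Rnr2 (SE 0.082). DESeq2 on the recovered reads, without the block, gave adjusted p = 0.0305 for mt-Rnr1 and 0.00628 for mt-Rnr2. The authors' deposited table gives false discovery rates of 0.478 for mt-Rnr1 and 0.180 for mt-Rnr2. Over all 12634 genes tested limma called 0% without the block, with 748 genes at an unadjusted p under 0.05, and edgeR called 0 with 743, while DESeq2 called 99. With the block limma called 2.1% in either direction and 1.54% lower, so 2 of 2 ribosomal RNAs and 0 of 8 messengers are to be read against that share.

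Among complex I messengers in Dox, mt-Nd1 had 2093, 1517 and 2093, against 2531, 2176 and 2418 in CTL, lower without overlap. This came to -0.33 on the log2 scale (SE 0.163), at a limma adjusted p of 0.868, or 0.106 with the block. mt-Nd2 had 1547, 989 and 1999 in Dox, against 1108, 983 and 1176 in CTL, 0.42 higher on the log2 scale (SE 0.25), at a limma adjusted p of 0.908, or 0.132 with the block.
Neither passed the test, and for mt-Nd2 only the second Dox library lay within the CTL range. mt-Nd4 had 1230, 979 and 1531 in Dox, against 1063, 954 and 1159 in CTL. mt-Nd5 had 2614, 1759 and 2957 in Dox, against 2612, 2376 and 2728 in CTL. Both overlapped, with log2 fold changes of 0.22 (SE 0.178) and -0.11 (SE 0.207).

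The remaining messengers overlapped between Dox and CTL too. mt-Cytb had 3566, 2722 and 3318 in Dox, against 3595, 3197 and 3327 in CTL, and mt-Co1 had 4954, 2962 and 5380 in Dox, against 5622, 5161 and 4946 in CTL. mt-Co3 had 0.798 to 2.46 in Dox, against 1.92 to 2.45 in CTL, and mt-Atp6 had 0.608 to 2.21 in Dox, against 1.42 to 1.78 in CTL, from no more than 61 reads in any of these libraries. Of the 10 transcripts 3 did not overlap and were lower (mt-Nd1, mt-Rnr1 and mt-Rnr2), where 5.66% of all genes tested were lower without overlap. None was higher without overlap, against 6.5% of all genes. The median log2 fold change was -0.10 over the messengers and -0.76 over the ribosomal RNAs, beside 0.011 over all genes tested.

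The second Dox library was the lowest of its group for all 10 transcripts, with a median deviation from the group mean of -0.49 (log2) over the messengers and -0.35 over the ribosomal RNAs. Without that library, mt-Nd5, mt-Cytb, mt-Co3 and mt-Atp6 had log2 fold changes of 0.115, 0.03, 0.051 and 0.205, above 0 where they had been below it. With the block and without the second pair, mt-Nd2 was higher at 0.62 and mt-Nd4 at 0.31 (limma adjusted p = 3.01e-06 and 0.00702), while mt-Rnr1 remained lower at -0.79 and mt-Rnr2 at -0.58 (1.47e-08 and 8.23e-07). In that fit limma called 1534 of 12634 genes rather than 265. It was chosen after seeing the data, and few libraries remain to measure the spread of each gene. Its p-values therefore rest largely on variance shared across genes and are not to be read as strong support.

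A ratio of messenger to ribosomal signal is taken within a library and so needs no scaling between libraries. The summed signal of the 8 messengers over that of the 2 ribosomal RNAs was 34.9, 27.8 and 33.2 in TKO libraries, against 62.5, 69.2 and 57.6 in WT libraries. The mean was 32.0 ± 3.74 in TKO and 63.1 ± 5.82 in WT (SD, n = 3 each), a difference of -0.98 on the log2 scale, and the groups were well apart. The same ratio was 62.7, 58.0 and 62.5 in Dox libraries, against 41.7, 42.4 and 35.7 in CTL libraries. Here the mean was higher, 61.0 ± 2.65 in Dox and 39.9 ± 3.68 in CTL (SD, n = 3 each), by 0.62 on the log2 scale. The two-sided exact permutation test gave p = 0.1, the smallest that 3 against 3 can give, and the exact test within pairs gave p = 0.25, likewise the smallest for 3 pairs. The pairs differed by 0.45 to 0.81.

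Where the ratio moved, the summed signals behind it did not move alike. Summed messenger signal was 14065 ± 1040 in TKO and 48258 ± 3547 in WT, and summed ribosomal signal was 442 ± 36.8 in TKO and 766 ± 23.95 in WT (SD, n = 3 each). In the other table, summed messenger signal was 14740 ± 3361 in Dox and 15715 ± 843 in CTL, and summed ribosomal signal was 240 ± 46.0 in Dox and 396 ± 45.6 in CTL. The Dox ratio was thus higher beside a lower ribosomal sum, and the TKO ratio lower beside a messenger sum that was lower by more than the ribosomal sum was.

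Set against the ribosomal sum messenger by messenger, 7 of 8 messengers were lower in TKO without overlap, from -0.54 (mt-Atp6) to -1.30 (mt-Nd5) on the log2 scale, where 1.08% of all genes tested were lower on the same ratio. mt-Co3 was higher by 0.72, as 77.8% of all genes were without overlap, and the median gene was higher by 0.79. These TKO values belong to the contrast behind the choice of the 10, and nothing is read from them. In Dox 6 of 8 were higher without overlap, from 0.40 (mt-Nd1) to 1.15 (mt-Nd2), and mt-Co3 and mt-Atp6 overlapped. Of all genes tested 73% were higher against the ribosomal sum in Dox without overlap and 0% lower, so 6 of 8 is near the background. The median gene was higher by 0.75, beside 0.62 for the summed messengers. The 8 share the same denominator and most are cut from the same precursor, so they are not independent of each other.

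**Figure D3:**
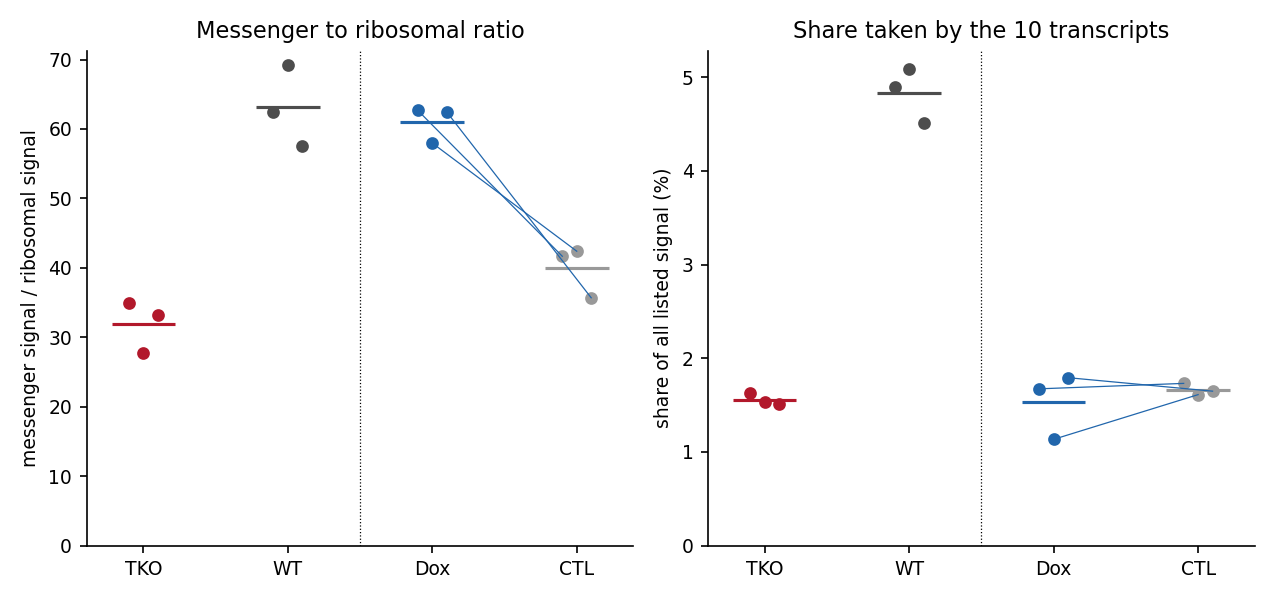
Left, summed signal of the 8 messengers divided by that of the 2 ribosomal RNAs in each library; right, share of all listed signal taken by the 10 transcripts, in percent. Points are libraries of TKO, WT, Dox and CTL, horizontal lines are means of 3, and thin lines join same-numbered Dox and CTL libraries; the ratio is 27.8 to 34.9 in TKO and 57.6 to 69.2 in WT, and the share is 4.52% to 5.09% in WT and at most 1.79% elsewhere.

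The 10 transcripts took 1.63%, 1.53% and 1.51% of the listed signal in TKO libraries, against 4.89%, 5.09% and 4.52% in WT libraries. They took 1.67%, 1.13% and 1.79% in Dox libraries, against 1.73%, 1.61% and 1.65% in CTL libraries. The WT libraries stood apart, and the TKO libraries lay within the range of the Dox libraries. The tables were normalized apart and list different genes, and the transgenic cells were cultured under their own conditions, so levels set across the tables are not a test. The Dox share differed from the CTL share by -0.13 percentage points (two-sided exact permutation p = 0.9), and by 0.069 without the second Dox library.

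Levels between genes can be compared only per length, and here also only where reads can be placed. Per kilobase of transcript, WT libraries averaged a signal of 8983 for mt-Cytb, 8619 for mt-Nd1, 7172 for mt-Co1, 5978 for mt-Nd5, 4311 for mt-Nd2 and 2370 for mt-Nd4, against 332 for mt-Rnr2, 252 for mt-Rnr1, 8.52 for mt-Atp6 and 3.97 for mt-Co3. In TKO libraries the order of the highest messengers was mt-Cytb (2868), mt-Co1 (2348) and mt-Nd1 (2340), with mt-Nd5 at 1402, mt-Nd2 at 1159 and mt-Nd4 at 835. In Dox libraries it was mt-Co1 (2869), mt-Cytb (2799) and mt-Nd1 (1987), and in CTL libraries mt-Co1 (3394), mt-Cytb (2948) and mt-Nd1 (2482). mt-Co3 and mt-Atp6 were at the bottom in every group.

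mt-Co3 and mt-Atp6 also share nearly all of their sequence with copies of mitochondrial DNA in the nuclear genome. Of the 75-base windows of mt-Co3, 99.9% also occur in another annotated transcript, leaving 1 window of its own out of 710, and for mt-Atp6 99.5%, leaving 3 of 607. The figure was 61.5% for mt-Nd4, 39.8% for mt-Co1, 5.7% for mt-Nd2 and 1.7% for mt-Nd5, and 0% for mt-Nd1, mt-Cytb, mt-Rnr1 and mt-Rnr2. The copies of mt-Co3, mt-Atp6 and the first part of mt-Nd4 are pseudogenes on chromosome 1: Gm28437 (chr1:24613189-24613971), Gm10925 (chr1:24613974-24614651) and Gm28439 (chr1:24611535-24612410), all on the - strand in GRCm38. They differ from the mitochondrial sequence by 0 substitutions over 783, 678 and 876 bases. Reads from either place within those stretches are the same letters, and how such reads were counted is not given in the sources used here. Neighbouring genes also overlap by some bases (mt-Atp6 with mt-Co3 and mt-Atp8, mt-Nd4 with mt-Nd4l), where a read cannot be given to either alone. Values of mt-Co3, mt-Atp6 and, in part, mt-Nd4 and mt-Co1 are therefore uncertain.

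**Figure D4:**
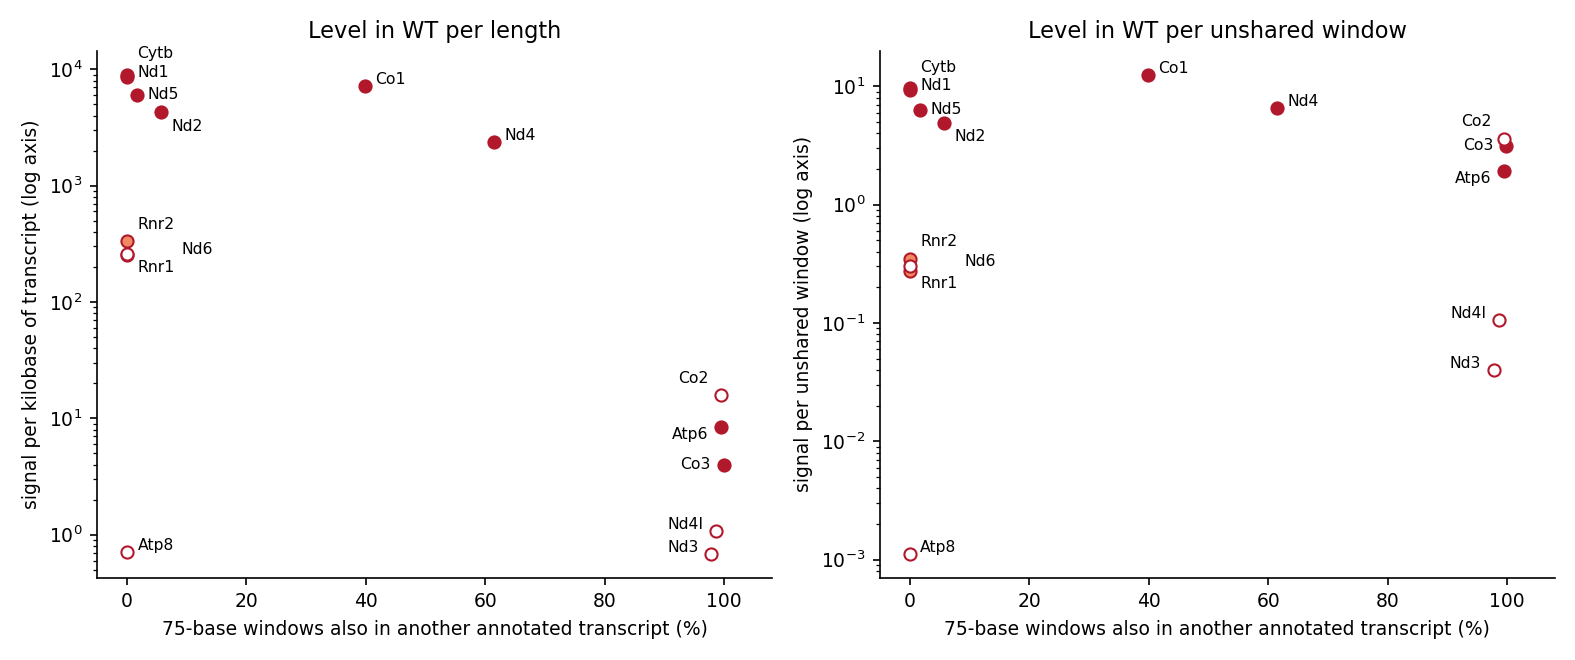
Mean signal in the 3 WT libraries (log axis) per kilobase of transcript (left) or per window found in no other annotated transcript (right), against the percentage of 75-base windows that are shared. Filled red points are the 8 messengers, orange points the 2 ribosomal RNAs and open points the 5 other messengers; mt-Co3 and mt-Atp6, at 99.9% and 99.5% shared, lie far below the other filled points at left, at 3.97 and 8.52, and nearer to them at right, at 3.11 and 1.93.

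Per window of its own, the WT signal of mt-Co3 was 3.11 and that of mt-Atp6 1.93. Their divisors were only 1 and 3 windows. The other messengers among the 10 transcripts ran from 4.92 (mt-Nd2) to 12.5 (mt-Co1). Messengers outside the 10 were below that range, at 3.59 for mt-Co2, 0.301 for mt-Nd6, 0.107 for mt-Nd4l, 0.0397 for mt-Nd3 and 0.00112 for mt-Atp8. Of these mt-Co2 was above mt-Co3 and mt-Atp6. The part of window sharing in these levels was not tested. The ribosomal RNAs, which share no window, stayed low on this scale, at 0.348 for mt-Rnr2 and 0.274 for mt-Rnr1. The copies had little signal beside the well-covered messengers, with group means of at most 18.3. Gm28437, the copy of mt-Co3, had 2.13 ± 0.144 in TKO and 2.41 ± 0.587 in WT (SD, n = 3 each), overlapping as mt-Co3 did. Gm10925, the copy of mt-Atp6, had 3.07 ± 0.0962 in TKO and 6.82 ± 0.348 in WT, and Gm28439, the copy of mt-Nd4, had 1.28 ± 0.0706 in TKO and 4.33 ± 0.350 in WT, both lower in TKO without overlap.

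The search covered annotated transcripts only, so a copy that is not annotated would not be counted as shared. The 4 messengers with under 10% of their windows shared (mt-Nd1, mt-Nd2, mt-Nd5 and mt-Cytb) had a median log2 fold change of -1.89 for TKO against WT, and of -0.09 for Dox against CTL. With these 4 alone over the ribosomal RNAs, the difference in log2 ratio was -1.07 for TKO minus WT and 0.66 for Dox minus CTL, beside -0.98 and 0.62 with all 8.

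Of the other messengers of mitochondrial DNA, mt-Nd6 is the complex I subunit encoded on the other strand and shares no window. Its gene lies opposite heavy-strand precursor and overlaps the end of mt-Nd5, and without the strand setting used in counting, reads of both strands cannot be told apart. How far mt-Nd6 was captured by the selection of polyadenylated RNA is not known here. It had 53.0, 43.1 and 50.0 in TKO, against 143.8, 149.9 and 107.6 in WT, without overlap (log2 fold change -1.43, SE 0.143). It had 23.8 to 61.0 in Dox, against 39.8 to 56.2 in CTL, overlapping.
mt-Co2, the copper-containing complex IV subunit that accepts electrons from cytochrome c, has 99.5% of its windows shared. It had 7.08 ± 0.277 in TKO and 10.8 ± 1.46 in WT, and 3.71 ± 1.64 in Dox and 5.86 ± 2.72 in CTL (SD, n = 3 each). In TKO it was lower without overlap, at a log2 fold change of -0.54 (SE 0.107), smaller in size than for either ribosomal RNA. In Dox against CTL its log2 fold change was -0.55 (SE 0.364), with overlap. The complex I subunits mt-Nd3 and mt-Nd4l and the ATP synthase subunit mt-Atp8 were below the filter on low values in both comparisons, with means of at most 0.320. mt-Nd3 averaged 0.199 in TKO and 0.238 in WT, overlapping. mt-Nd4l averaged 0.112 in TKO and 0.320 in WT, and mt-Atp8 0.057 and 0.145, both lower without overlap. mt-Nd3 and mt-Nd4l have 97.8% and 98.7% of windows shared, whereas mt-Atp8 has 0%. No pseudogene is annotated between Gm10925 and Gm28661, the copies of mt-Atp6 and mt-Co2, where a copy of mt-Atp8 would lie.

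Nuclear genes that act on mitochondrial DNA and RNA did not move in a common direction in TKO cells. The lists below were chosen with earlier results of these data known, and most genes named are those with the smallest p in a list. Counts and p-values of the lists are to be read with that limit. Of 17 tested genes for transcription and replication, 4 rose and 3 fell by limma, where 23.2% of all genes tested were called higher and 22.7% lower, and the median log2 fold change of the list was 0.01. Tfb2m, which lets the mitochondrial RNA polymerase open the promoter, fell to 17.9, 14.1 and 15.9 in TKO, against 30.4, 30.2 and 28.1 in WT (log2 fold change -0.85, SE 0.097, limma adjusted p = 0.001). Polrmt, that polymerase, was at 21.7, 23.5 and 22.7 in TKO, against 14.8, 16.2 and 17.5 in WT (0.46, SE 0.083, limma adjusted p = 0.00491).
Tfam, which packs mitochondrial DNA and activates its promoters, rose by 0.40 (SE 0.065, limma adjusted p = 0.0034). Polg, the DNA polymerase, rose by 0.57, and Ssbp1, which binds single-stranded mitochondrial DNA, had a log2 fold change of -0.56, and both passed the test.

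Of 22 genes for RNA processing and stability, 1 rose and 4 fell, where 23.2% of all genes tested were called higher and 22.7% lower. The median of the list was -0.06. Slirp, a partner of Lrpprc in stabilizing mitochondrial messengers, rose to 24.9, 24.4 and 23.4 in TKO, against 12.9, 11.4 and 12.2 in WT (0.94, SE 0.074, limma adjusted p = 0.000329). Lrpprc itself had a log2 fold change of 0.13 (limma adjusted p = 0.345). Mtpap, the mitochondrial poly(A) polymerase, fell by 0.38, Trmt10c, a subunit of the enzyme that cuts tRNA 5′ ends out of the precursor, fell by 0.41, and Pnpt1, a nuclease of mitochondrial RNA, fell by 0.33. All 3 passed the test. Without the first or without the second WT library Pnpt1 did not (limma adjusted p = 0.0515 and 0.0579). Pnpt1 also failed with the block and the trend of fold change on transcript length and GC content removed (-0.21, limma adjusted p = 0.0791).

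Genes that modify ribosomal RNA or assemble the mitochondrial ribosome leaned higher, with 12 of 22 rising, 1 falling and a median of 0.27. Of all genes tested 23.2% were called higher and 22.7% lower. Mrm1, a ribosomal RNA methyltransferase, rose by 0.77 (SE 0.081, limma adjusted p = 0.000764), Rpusd4, a pseudouridine synthase, by 0.58, and Dhx30, a helicase of ribosome assembly, by 0.42. The member that fell was Tfb1m, which methylates the small-subunit RNA (3.41, 3.83 and 3.63 in TKO, against 6.57, 6.65 and 5.78 in WT, -0.66, limma adjusted p = 0.00201). Of 9 translation factors 1 rose (Tsfm, the elongation factor that recharges its partner, 0.98) and 2 fell (Mrrf, the ribosome recycling factor, at -0.53, and Gfm1, an elongation factor, at -0.41).

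Nuclear regulators of mitochondrial genes leaned lower, with 7 of 9 falling and a median of -0.51, where 22.7% of all genes tested were called lower. Gabpa, the DNA-binding subunit of the nuclear respiratory factor GABP, fell to 97.7, 83.4 and 97.2 in TKO, against 176, 167 and 157 in WT (-0.84, SE 0.085, limma adjusted p = 0.00067). Its partner Gabpb1 fell by 0.57 and the coactivator Pprc1 by 0.58. Esrra, a nuclear receptor that activates respiratory genes, rose to 21.6, 20.8 and 18.2 in TKO, against 6.80, 8.12 and 9.15 in WT (1.24, SE 0.120, limma adjusted p = 0.000601). Nrf1, another nuclear respiratory factor, had a log2 fold change of -0.028 (limma adjusted p = 0.789).
Of 16 proteins of the mitochondrial membranes and matrix, 7 rose and 4 fell, beside 23.2% higher and 22.7% lower over all genes tested. The median of the list was 0.15. Slc25a5 and Slc25a4, which exchange ADP and ATP, rose by 1.09 and 0.53, and Tomm22 and Tomm40, of the outer-membrane import pore, by 0.71 and 0.49. The rise of Tomm40 did not pass once the trend of fold change on transcript length and GC content was removed (0.12, limma adjusted p = 0.203).

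In Dox cells no gene of these lists passed limma with or without the block, and the list medians lay between 0.04 and 0.11. Of all genes tested 0% passed without the block and 2.1% with it. Passing none is thus near the background and does not show these genes to be unchanged. Tfb2m had a log2 fold change of -0.005, Polrmt of 0.10, Tfam of 0.046, Slirp of 0.10, Lrpprc of -0.15, Mtpap of -0.098 and Nrf1 of 0.071.

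**Figure D5:**
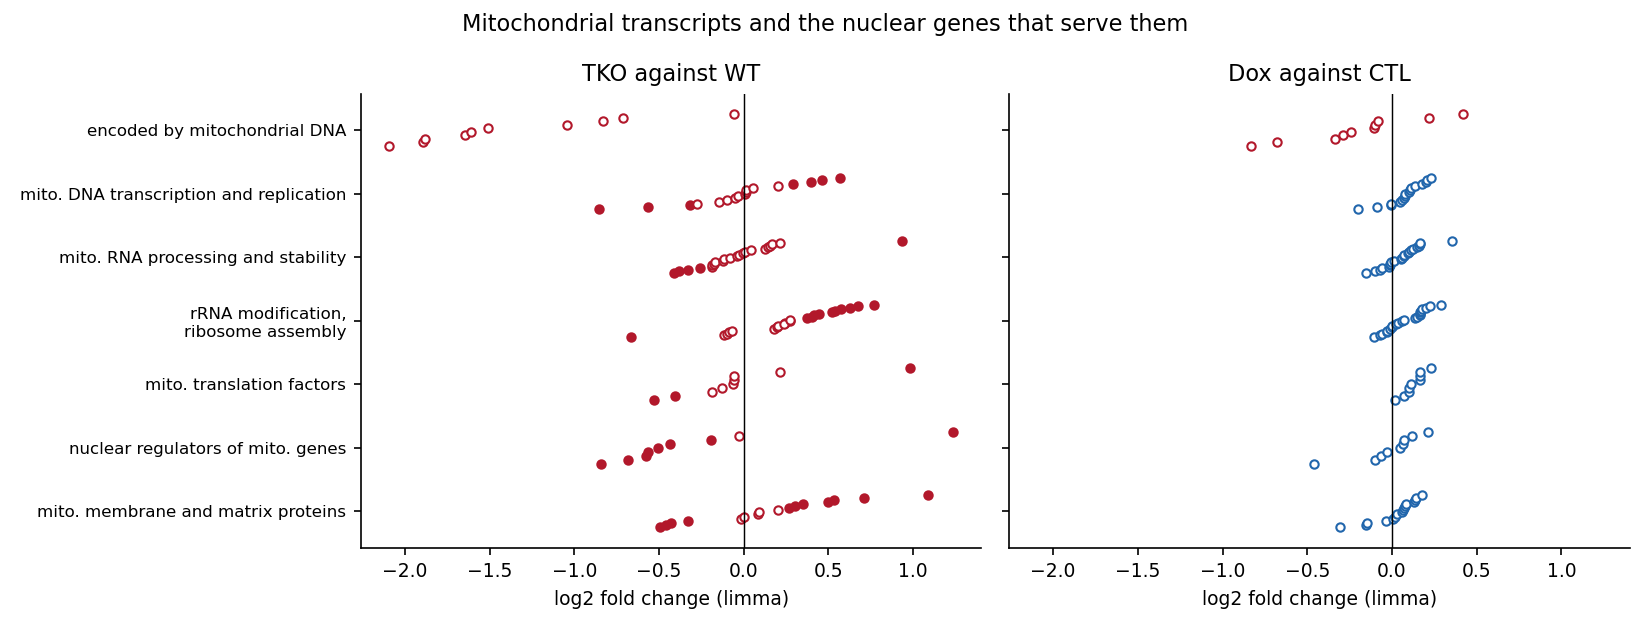
Log2 fold change from limma (horizontal axis) of the 10 transcripts (top row) and of each tested gene in 6 lists of nuclear genes, in TKO against WT (left) and Dox against CTL (right). Each point is a gene, filled where it passed limma at adjusted p 0.05 without the block; the top row is always open since its TKO values were not tested. The lowest nuclear gene shown in TKO is Tfb2m at -0.85.

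The nuclear genes whose profile over the 6 libraries was nearest to the mean messenger profile were found by the root mean square difference of centred log2(signal + 1). In the TKO and WT libraries these were Nsrp1 (0.104), Fam122a (0.120), Hcfc1r1 (0.121), Tcf7l1 (0.122) and Ppig (0.143), of 10340 genes with a mean signal of at least 5. Nsrp1, a splicing-speckle protein, had 29.2, 25.9 and 26.1 in TKO, against 70.5, 67.8 and 61.3 in WT. Hcfc1r1 had 67.9, 65.7 and 58.7 in TKO, against 195, 210 and 204 in WT. In the Dox and CTL libraries the nearest were Zfp994 (0.037), Orc4 (0.037), Trove2 (0.040), Zfp820 (0.050) and Mpp5 (0.053) of 10321. No gene was among the nearest 5 in both. The 6 libraries of a comparison are shared by all genes, so these distances are a description. The mean messenger profile weights all 8 messengers alike. It includes mt-Co3 and mt-Atp6, which changed less in TKO than the well-covered messengers did.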

How the data were processed

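RNA of 12 libraries was analysed from gene tables. Per the submitters' processing notes, TopHat2 2.0.12, featureCounts 1.4.6, edgeR 3.8.6 and StringTie 1.2.2 were used with GRCm38 (mm10); the strand setting and the treatment of reads with several positions are not given in the sources used here. The signal values deposited by the authors are read counts divided by library size and scaled by a library factor. The deposited log2 columns (fold change and mean level), p-value and false discovery rate columns and score column (a likelihood ratio) come from the authors' own test and were not used, except where the authors' deposited table is named. Only genes above 0 in all 6 libraries are listed, 19262 and 16785.

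Counts had been planned for; since the files held scaled signal, limma 3.58.1 (R 4.3.3, trend on mean level) was run on log2(signal + 1) for genes that reached a signal of 1 in 3 or more libraries. Tests ran over 12649 genes with TKO and WT values and over 12634 with Dox and CTL values, with Benjamini-Hochberg adjustment over all of them and a threshold of 0.05. SE is that of the fitted log2 fold change. Dividing by the value of 1 read gave whole reads within 0.1 for 100% of values. On these reads edgeR 4.0.16 called 5769 genes for TKO against WT, DESeq2 1.42.0 called 6354 and limma on signal 5796. Tables were normalized apart and fitted apart. There were 0 library columns without a sample. Of the gene identifiers 99.8% and 99.9% matched GENCODE vM21, whose transcripts gave lengths and 75-base windows. Python 3.11.15 with numpy 2.4.6, pandas 2.3.3 and matplotlib 3.10.9 was used elsewhere.

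Members and lists were chosen with earlier results of these data known. The genes named were the members, the other mitochondrial genes and their nuclear copies, up to 4 genes with the smallest p in each list plus Polrmt, Tfam, Tfb2m, Lrpprc, Slirp, Mtpap and Nrf1, and the 5 nearest profiles per table. Examples among the nuclear copies were chosen after their values were seen. Replicate numbers come from the labels. Deviations from group means of same-numbered libraries correlated at 0.86, 0.58 and 0.74 in Dox and CTL, so these numbers were taken as pairs. The columns of Dox replicates 2 and 3 share a sequencing suffix, so their identity rests on the replicate number. Of the marker lists, 3 of 9 stromal progenitor genes were called in TKO against WT, where 45.8% of all genes tested were. In either comparison 0 genes of the macrophage and leukocyte, endothelial, mature adipocyte, mesothelial and epithelial, and Schwann and muscle lists were called. In Dox against CTL 0 genes of the whole table were called. Some marker sums spread widely between libraries of a group, so these counts do not show that cell composition was alike. Depth limits counting error only.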

Additional observations from a re-analysis of the deposited data

How the results depend on the processing

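Among alternative values of the 10 transcripts in Dox against CTL, 6 turned in direction, 19 came to pass the threshold and 163 kept direction and side of it. In TKO against WT 3 turned, all of mt-Co3, 9 moved by more than the spread between libraries and 148 by less. For mt-Co3 these were 0.038 under library-total scaling, 0.001 with the members left out of that total, and a range of -0.146 to 0.032 with a library left out. The log2 ratio of messengers to ribosomal RNAs was -0.696 for TKO minus WT with a mean over members in place of a sum, and ran from -1.051 to -0.886 with a library left out. For Dox minus CTL it was 0.724 over mt-Rnr1 alone and ran from 0.537 to 0.661 with a library left out. The share of signal ran from -0.26 to 0.069 percentage points for Dox minus CTL with a library left out, the last without Dox replicate 2, and from -3.429 to -3.145 for TKO minus WT. Genes called in TKO against WT ran from 3938 to 5723 with a library left out and came to 5101 with the replicate block; same-numbered TKO and WT libraries correlated at 0.45, -0.13 and -0.29 and share only a number. Library-total scaling split these calls into 3824 higher and 1913 lower, against 2930 and 2866. In Dox against CTL limma called 0 genes, with 748 at an unadjusted p under 0.05, DESeq2 called 99, the replicate block 265, and the block with the length and GC trend removed 930. With the block and a pair left out it was 134, 1534 and 591 genes without replicates 1, 2 and 3. Fits with the block and a further choice were chosen after seeing the data. Where a pair was left out, p-values rest largely on variance shared across genes. Beyond the ribosomal RNAs, the block alone changed no call of a named gene. With the block and the trend removed mt-Nd1 (-0.28, limma adjusted p = 0.0384), mt-Nd2 (0.49, 0.0136) and mt-Nd4 (0.30, 0.0267) passed too. Without replicate 3 under the block mt-Co1 (-0.49, 0.0114) and mt-Nd1 (-0.397, 0.0339) passed. Without replicate 2 under the block mt-Nd5 was at 0.059 and mt-Atp6 at 0.245. With a library left out in Dox against CTL, mt-Nd5 ran from -0.26 to 0.115, mt-Atp6 from -0.294 to 0.205, mt-Co3 from -0.42 to 0.051 and mt-Cytb from -0.165 to 0.03, each highest without Dox replicate 2. The cause was not tested. Lrpprc in TKO against WT passed with the trend removed (0.25, limma adjusted p = 0.0455). Small values of nuclear genes turned too. In TKO against WT Nrf1 was at 0.093 under library-total scaling and 0.046 with the members left out of it, and ran from -0.075 to 0.031 with a library left out. In Dox against CTL Nrf1 was at -0.002, Mtpap at 0.028 and Tfb2m at 0.039 under the block without replicate 2, Tfam at -0.051 under it without replicate 3, and Tfb2m at 0.021 with the trend removed, with or without the block. With a library left out Mtpap ran from -0.203 to 0.042, Tfam from -0.03 to 0.124 and Tfb2m from -0.096 to 0.076. The search for 75-base stretches, planned for a genome, was run on annotated transcripts, a choice made after seeing the data.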
